A study of Arabidopsis thaliana with 18 samples.

Results

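EpiHybrid 150 was compared with epiHybrid 232 in 100 bp windows placed across 3 intervals of the Arabidopsis thaliana genome (TAIR10) that the table names as QTL (quantitative trait loci). A window was used when both epiHybrids had at least 10 cytosines in it, and only every second window was taken so that none overlapped. This left 19033 of the 43887 windows in the table. Of these, 6383 lay in the first interval on chromosome 3 (chr3:8937051-9698100), 8551 in the second (chr3:22235451-23207500) and 4099 in the interval on chromosome 4 (chr4:11363351-11824750). In 17528 windows the epiRILs of the same numbers, epiRIL 150 and epiRIL 232, differed by less than 0.05 in methylation level, and these windows are called like-parent windows. In 274 windows they differed by 0.2 or more (unlike-parent windows), 1137 windows lay between these limits, and 94 had no level in an epiRIL.

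The groups were epiHybrid 150, epiHybrid 232, epiRIL 150, epiRIL 232 and wild type Columbia (Col-Wt), with epiHybrids 92 and 193 and epiRILs 92 and 193 used for other pairs of hybrids, each with 2 bisulfite sequencing libraries. DNA came from aerial rosette tissue taken 21 to 22 days after sowing, in long days (16 h light, 8 h dark). The authors combined both libraries of a line into 1 level per window, so no value has a replicate error, no test between the epiHybrids could be made, and every difference is described by its size. Each epiRIL and each epiHybrid is 1 line, and no label tells if its libraries are from separate plants. No label names the second parent of the epiHybrids. The deposited differences of the hybrids from their mid-parent values match the mean of Col-Wt and the epiRIL, and Col-Wt is taken as that parent.

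An epiRIL (epigenetic recombinant inbred line) has nearly the same DNA sequence as its wild type but carries stretches of chromosome inherited in a state of low DNA methylation. A widely used epiRIL population descends from a mutant of DDM1, a chromatin remodeller that plants need to keep transposons and other repeats methylated. An epiHybrid comes from crossing an epiRIL with another line, so at each position it holds 1 chromosome from either side. Methylation at such hybrid loci can lie at the mean of the parents or depart from it when small RNAs or the methylation state of the homologous chromosome act on the other copy. Plant DNA is methylated in the CG, CHG and CHH contexts (H is any base but G), and here all 3 contexts are pooled in 1 level, so a fully methylated CG set among unmethylated CHH sites still gives a low value.

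Over all 19033 windows the mean methylation level, a fraction between 0 and 1, was 0.0366 in epiHybrid 150 and 0.0328 in epiHybrid 232. It was 0.0302 in epiRIL 150, 0.0254 in epiRIL 232 and 0.0409 in Col-Wt. The mean difference of epiHybrid 150 minus epiHybrid 232 was 0.00386, against a standard deviation over windows of 0.0346, and the median difference was 0. Most windows were unmethylated in both hybrids, and the difference came from a minority. EpiHybrid 150 was higher by 0.1 or more in 407 windows (2.14% of those compared) and lower by 0.1 or more in 101 (0.531%). Past 0.2 there were 112 higher windows (0.588%) and 7 lower ones (0.0368%). The first chromosome 3 interval held 278 of the windows with epiHybrid 150 higher and 45 of those with it lower, the second chromosome 3 interval 93 and 33, and the chromosome 4 interval 36 and 23. The mean difference was 0.00851, 0.00181 and 0.000879 in these intervals. In blocks of 50 kb, the mean difference was above 0 in 35 of 47 blocks, 15 of 16 of them in the first interval, 14 of 21 in the second and 6 of 10 on chromosome 4. Levels of the hybrids followed each other closely across windows (Pearson's r = 0.918 over 19033 windows, which share the same sites and are not independent).

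The main pattern among like-parent windows was that the hybrids differed where both epiRILs had lost methylation that Col-Wt carries. There were 305 windows with a level of 0.2 or more in Col-Wt (at least 10 cytosines) and under 0.05 in both epiRILs. In these windows the mean level was 0.230 in epiHybrid 150 and 0.176 in epiHybrid 232. The epiRILs hardly differed there, at 0.00917 in epiRIL 150 and 0.00795 in epiRIL 232, and Col-Wt was at 0.345. EpiHybrid 150 was the higher hybrid in 241 windows and the lower in 61. The mean difference was 0.0539, its median 0.0439 and its standard deviation over windows 0.0835. It was past 0.1 upwards in 57 windows and downwards in 3, where all like-parent windows had 127 (0.725%) and 51 (0.291%). Set against the mean of Col-Wt and the epiRIL, epiHybrid 150 lay 0.0534 above its mid-parent level of 0.177, and epiHybrid 232 lay 0.000171 above its own of 0.176. The levels of Col-Wt and the epiRILs also picked these windows, so these departures have no fixed value for hybrids at their mid-parent levels. The small mean for epiHybrid 232 covers windows above and below its mid-parent level. Both chromosome 3 intervals showed the gap between the hybrids. The levels were 0.226 in epiHybrid 150 and 0.159 in epiHybrid 232 over 114 windows of the first. They were 0.235 in epiHybrid 150 and 0.188 in epiHybrid 232 over 189 windows of the second. The chromosome 4 interval held 2 such windows, at 0.00333 in epiHybrid 150 and 0.030 in epiHybrid 232.

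In like-parent windows of other states the mean difference was smaller. Where both epiRILs had kept a level of 0.2 or more at sites methylated in Col-Wt (238 windows), the mean was 0.343 in epiHybrid 150 and 0.337 in epiHybrid 232, with a standard deviation of the difference over windows of 0.0509. EpiHybrid 150 was higher by 0.1 or more in 6 of these windows and lower in 6. Where Col-Wt and both epiRILs were under 0.05 (13836 windows), the mean was 0.00627 in epiHybrid 150 and 0.00620 in epiHybrid 232, with 28 windows higher and 31 lower past 0.1. The remaining 3149 like-parent windows averaged 0.0583 in epiHybrid 150 and 0.0562 in epiHybrid 232, with 36 higher and 11 lower. Over all 17528 like-parent windows the mean difference was 0.00145.

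**Figure D1:**
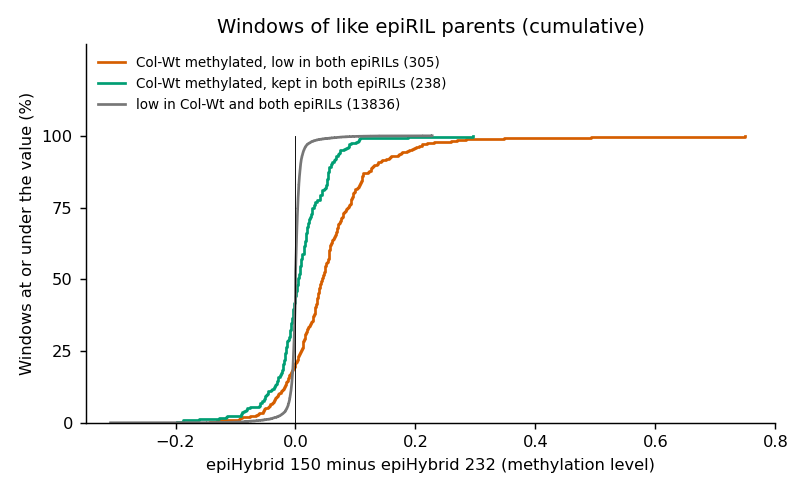
Cumulative share of windows (y axis, %) against the difference in methylation level of epiHybrid 150 minus epiHybrid 232 (x axis), for 3 states of like-parent windows, with the number of windows in brackets. The curve of windows methylated in Col-Wt and low in both epiRILs is shifted to the right, with a median of 0.0439, and reaches 0.749; the other curves rise steeply around 0.

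The plot of cumulative shares sets these states side by side. Of 25 like-parent windows past 0.2, epiHybrid 150 was the higher hybrid in 23 (0.131% of like-parent windows) and the lower in 2 (0.0114%), and 10 of the 25 lay at or between the neighbouring pseudogenes AT3G26260 and AT3G26265, with the rest spread over other genes. The highest value, 0.749, belonged to a window near NIMIN-2, whose protein is known to bind the salicylic acid regulator NPR1. This window held 33 cytosines in epiHybrid 150 but 14 in each of epiHybrid 232, epiRIL 150 and epiRIL 232.

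Windows methylated in Col-Wt and low in both epiRILs formed 17 tracts of 5 or more windows, where consecutive windows started no more than 200 bp apart, and these tracts held 254 of the 305 windows. Over the windows in tracts the level was 0.227 in epiHybrid 150 and 0.186 in epiHybrid 232, a difference of 0.0419 with 34 windows past 0.1 upwards. Over the 51 windows outside tracts it was 0.245 in epiHybrid 150 and 0.131 in epiHybrid 232, a difference of 0.113 with 23 windows past 0.1 upwards. Past 0.2 upwards there were 11 of these windows, most at or between AT3G26260 and AT3G26265 and others at or near NIMIN-2 and DHDPS1. EpiHybrid 150 departed from its mid-parent level by 0.0497 in tracts and 0.0721 outside, and epiHybrid 232 by 0.00811 and -0.0394. EpiHybrid 150 was higher over 15 of the 17 tracts, with differences between -0.00911 and 0.121 and a median of 0.0345. Some of these tracts lie in the same gene (AT3G25450, AT3G25485 or AT3G60565), so they are not all separate loci. As a percentage of the Col-Wt level, the tract median was 67.1% in epiHybrid 150 (range 47.9 to 91.1%) and 57.0% in epiHybrid 232 (range 36.0 to 68.1%). The largest difference was at AT3G60565 (chr3:22383851-22384350, 5 windows), a pseudogene, with 0.284 in epiHybrid 150 and 0.163 in epiHybrid 232. A second tract in the same pseudogene (chr3:22386451-22387150, 6 windows) had 0.279 in epiHybrid 150 and 0.188 in epiHybrid 232. The exceptions were small: over chr3:22235451-22236750 at AT3G60164 and AT3G60170 the level was 0.183 in epiHybrid 150 and 0.192 in epiHybrid 232, and over chr3:9226851-9227950 at AT3G25450 it was 0.169 in epiHybrid 150 and 0.178 in epiHybrid 232. Further tracts in AT3G25450 had epiHybrid 150 higher. Over chr3:9228151-9229850 the level was 0.205 in epiHybrid 150 and 0.176 in epiHybrid 232. Over chr3:9230051-9231050 it was 0.192 in epiHybrid 150 and 0.173 in epiHybrid 232. Of the 17 tracts, 12 had a pseudogene as an overlapping or nearby gene. In the RefSeq annotation used here (TAIR10.1), many decayed transposon copies are listed as pseudogenes; transposable elements themselves were not used here.

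**Figure D2:**
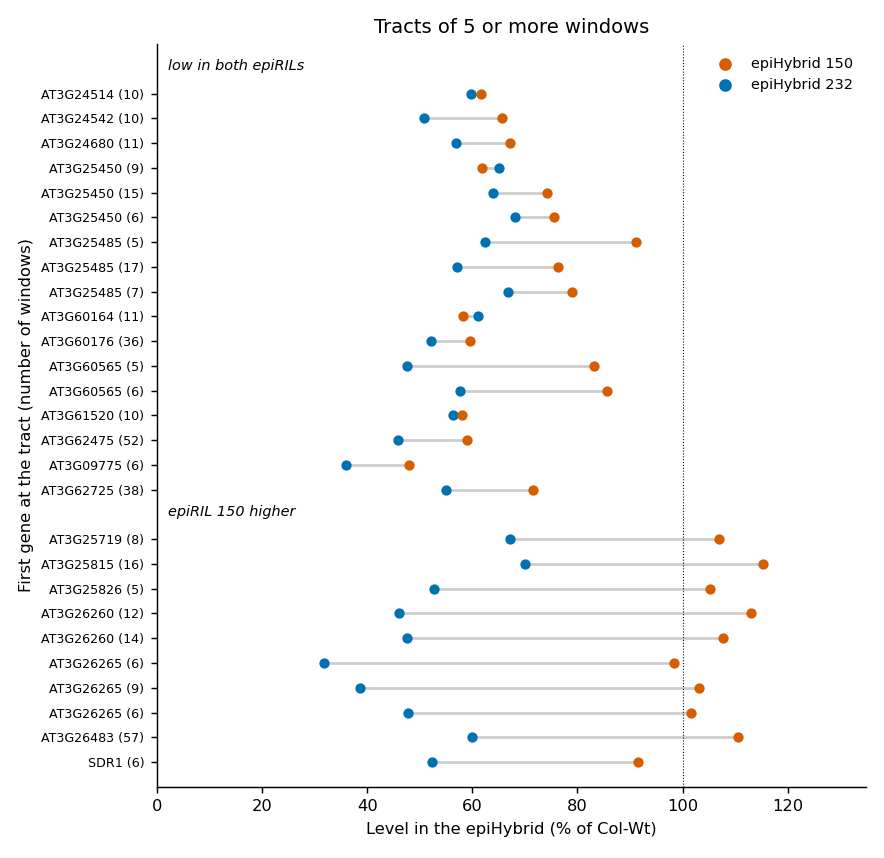
Level of epiHybrid 150 (orange) and epiHybrid 232 (blue) as a percentage of Col-Wt (x axis) in each tract of 5 or more windows, named by the first gene at the tract with the number of windows in brackets. The upper block holds 17 tracts low in both epiRILs, where epiHybrid 150 lies at 47.9 to 91.1% and epiHybrid 232 at 36.0 to 68.1%; the lower block holds 10 tracts where epiRIL 150 was higher by 0.2 or more, and there epiHybrid 150 lies at 91.5 to 115% and epiHybrid 232 at 31.7 to 70.0%.

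The plot of tracts shows the size of the gap from locus to locus. At AT3G62475, AT3G62480 and AT3G62490, 3 adjacent pseudogenes, the tract chr3:23110351-23115850 (52 windows) had 0.264 in epiHybrid 150 and 0.205 in epiHybrid 232. Col-Wt was at 0.447 there, and epiHybrid 150 was higher in 46 windows and lower in 6. The pseudogene AT3G62725 at the end of the second interval (chr3:23203551-23207450, 38 windows) had 0.243 in epiHybrid 150 and 0.187 in epiHybrid 232, with Col-Wt at 0.339. The pseudogene AT3G25485 had 0.251 in epiHybrid 150 and 0.201 in epiHybrid 232 over its 37 windows, with the most distinct stretch at chr3:9236851-9237350 (0.304 in epiHybrid 150 and 0.182 in epiHybrid 232). Low levels in both epiRILs picked the windows of the tracts. Over all windows of each of these pseudogenes, both epiRILs also averaged under 0.1, and both hybrids lay between the epiRIL and Col-Wt levels. Over the 17 windows of AT3G62475, of which 9 were like-parent, epiRIL 150 had 0.0191 and epiRIL 232 had 0.0752. The hybrids there had the reverse order, with 0.275 in epiHybrid 150 and 0.197 in epiHybrid 232.

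Not every locus low in both epiRILs differed as much. Over the 36 windows of chr3:22237651-22241250, the level was 0.219 in epiHybrid 150 and 0.191 in epiHybrid 232. AT3G60176, a non-coding RNA gene, covers only part of this tract. Over its own 11 windows the gap was wider, with 0.227 in epiHybrid 150 and 0.180 in epiHybrid 232. EpiHybrid 150 was higher in 10 of them. The pseudogene AT3G60170 had 0.185 in epiHybrid 150 and 0.181 in epiHybrid 232, and the pseudogene AT3G60164 had 0.229 in epiHybrid 150 and 0.218 in epiHybrid 232. Among the small genes at the start of the first interval, AT3G24542 had 0.179 in epiHybrid 150 and 0.137 in epiHybrid 232 and was higher in epiHybrid 150 in all 15 of its windows. AT3G24514 had 0.160 in epiHybrid 150 and 0.151 in epiHybrid 232, with 8 of its windows higher and 6 lower.

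The pair AT3G26260 and AT3G26265 held the widest gap at a locus of mixed parental states. AT3G26260 had 0.288 in epiHybrid 150 and 0.121 in epiHybrid 232, and epiHybrid 150 was higher in all 48 windows, by 0.1 or more in 42. AT3G26265 had 0.310 in epiHybrid 150 and 0.118 in epiHybrid 232, higher in all 37 windows and past 0.1 in 36. EpiRIL 150 averaged 0.221 and 0.222 at these pseudogenes, epiRIL 232 averaged 0.0115 and 0.0121, and Col-Wt 0.265 and 0.314. Along the locus the level of epiRIL 150 was uneven. Between the pseudogenes, over chr3:9618651-9619150, it was 0.0107, beside 0.00460 in epiRIL 232, yet the hybrids were at 0.280 in epiHybrid 150 and 0.0390 in epiHybrid 232, with 0.263 in Col-Wt. Over chr3:9619451-9620250, also between them, the levels were 0.282 in epiHybrid 150, 0.0367 in epiHybrid 232, 0.0315 in epiRIL 150, 0.00711 in epiRIL 232 and 0.242 in Col-Wt. So within this locus epiHybrid 150 was close to the Col-Wt level both where epiRIL 150 was methylated and where it was not.

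**Figure D3:**
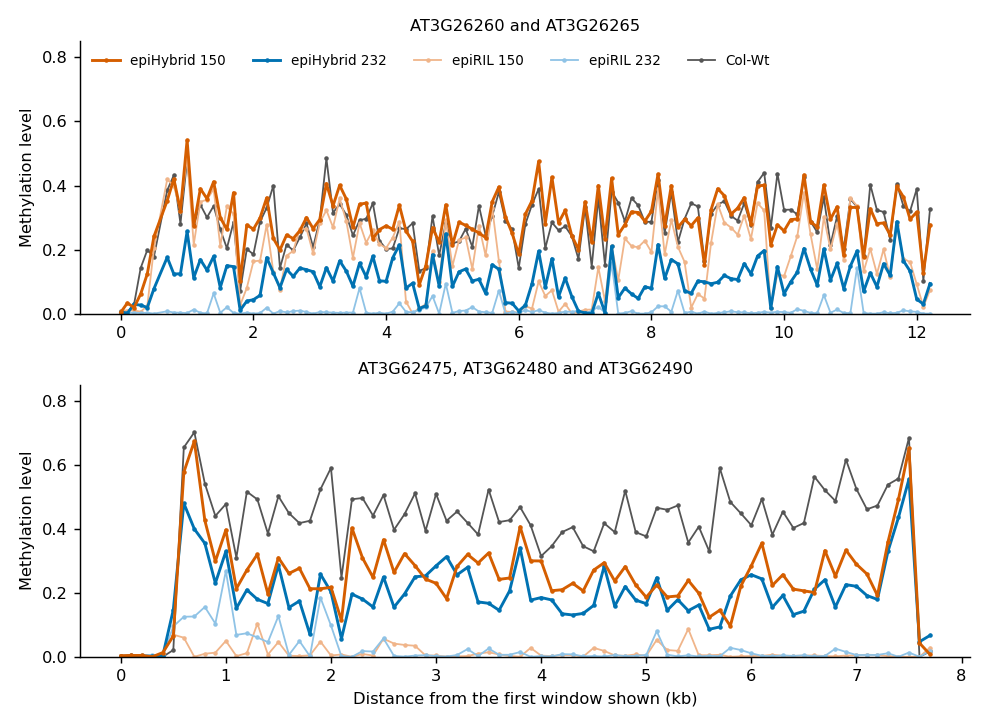
Methylation level (y axis, fraction) of the 5 lines along 2 loci of chromosome 3 (x axis, distance in kb from the first window shown), 1 point per window. In the upper panel epiHybrid 150 runs near Col-Wt and epiHybrid 232 below it, with means of 0.288 in epiHybrid 150 and 0.121 in epiHybrid 232 at AT3G26260; in the lower panel both hybrids run between Col-Wt and the epiRILs, with 0.264 in epiHybrid 150 and 0.205 in epiHybrid 232 over the tract.

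The profiles of both loci show the contrast. At AT3G26260 and AT3G26265 the curves of the hybrids are separate along nearly the whole length. At AT3G62475 to AT3G62490 the gap is narrower and the curves cross in places, with epiHybrid 150 higher in 46 of the 52 windows of the tract. Without the windows within 3000 bp of AT3G26260 and AT3G26265, an alternative chosen after these values were seen, the mean difference of the first interval was 0.00505 in place of 0.00851.

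In unlike-parent windows the hybrids differed in the direction of their epiRILs. With epiRIL 150 higher (233 windows), the mean level was 0.360 in epiHybrid 150 and 0.217 in epiHybrid 232. The epiRILs chose these windows, with 0.370 in epiRIL 150 and 0.0583 in epiRIL 232, and Col-Wt was at 0.333. The hybrid difference of 0.143 (standard deviation over windows 0.109) was 0.458 of the epiRIL difference, both summed over windows. The epiRIL difference both picked the windows and divides the share, so the share has no fixed value for hybrids at their mid-parent levels. With windows picked by the epiRIL difference of their neighbours, the share was 0.534. EpiHybrid 150 was higher in 211 windows and lower in 21, and of all 274 unlike-parent windows 167 passed 0.1 upwards (60.9%) and 19 downwards (6.93%). Past 0.2 there were 66 upwards (24.1%) and 3 downwards (1.09%). The share was 0.503 in the first interval, 0.369 in the second and 0.162 over 19 windows on chromosome 4.

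**Figure D4:**
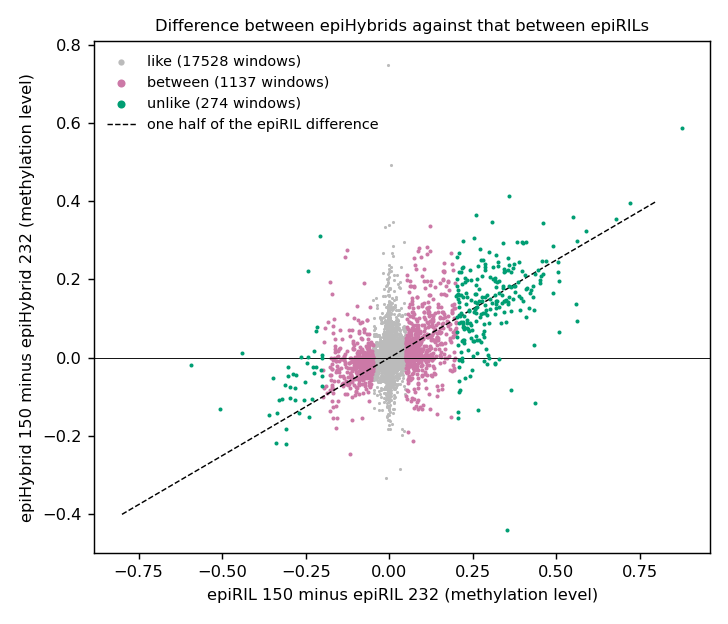
Difference of epiHybrid 150 minus epiHybrid 232 (y axis, methylation level) against that of epiRIL 150 minus epiRIL 232 (x axis), 1 point per window, coloured by how far the epiRILs differ. The dashed line is 0.5 of the epiRIL difference; the epiRIL difference on the x axis chose the classes, and like-parent windows spread upwards near 0 on that axis, to 0.749.

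**Figure D5:**
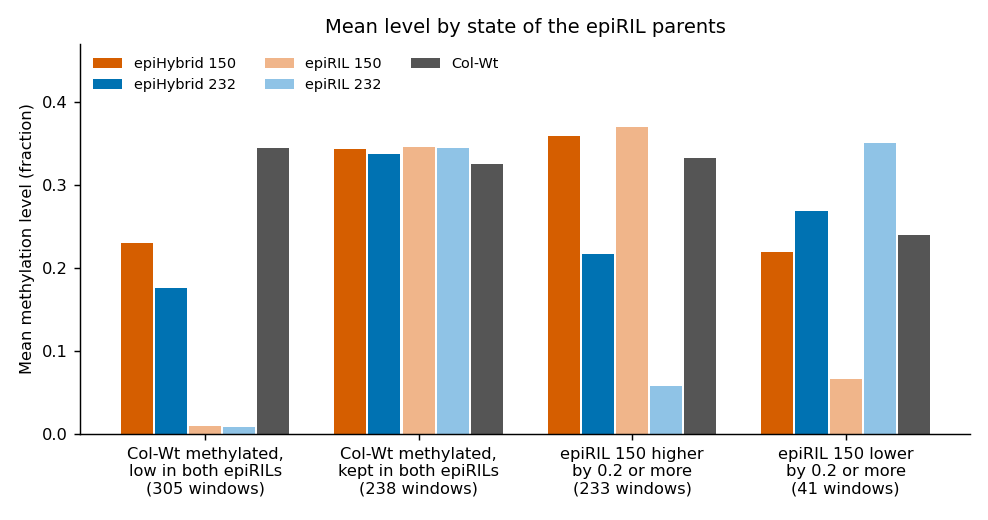
Mean methylation level (y axis, fraction) of epiHybrid 150, epiHybrid 232, epiRIL 150, epiRIL 232 and Col-Wt in 4 sets of windows, with the number of windows in brackets and no error bars since each line has 1 value per window. EpiHybrid 150 stands above epiHybrid 232 where both epiRILs are low (0.230 in epiHybrid 150 and 0.176 in epiHybrid 232) and where epiRIL 150 is higher (0.360 in epiHybrid 150 and 0.217 in epiHybrid 232).

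Over all windows in the plot of hybrid against epiRIL difference, Pearson's r was 0.510 (18939 windows), as a description of windows that share libraries and neighbours. With epiRIL 150 lower (41 windows), the bar plot of mean levels shows the reverse order of the hybrids at a smaller size, 0.219 in epiHybrid 150 and 0.268 in epiHybrid 232, for epiRIL levels of 0.0666 in epiRIL 150 and 0.350 in epiRIL 232. The hybrid difference of -0.0489 was 0.172 of the epiRIL difference, and it was past -0.1 in 14 windows and past 0.1 in 2. Within tracts of 5 or more windows the share was 0.534 with epiRIL 150 higher (139 windows) and 0.318 with it lower (11 windows). Outside tracts it was 0.334 (94 windows) and 0.108 (30 windows).

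The unlike-parent windows with epiRIL 150 higher formed 10 tracts, and epiHybrid 150 was higher in all 10, by 0.111 to 0.230. Several of these tracts are pieces of 1 locus, AT3G26260 and AT3G26265, so the 10 are not separate loci. The tract median was 106% of the Col-Wt level in epiHybrid 150 and 50.01% in epiHybrid 232. The longest tract was at AT3G26483 and AT3G26486, 2 pseudogenes near the end of the first interval (chr3:9692251-9697950, 57 windows). Its level was 0.393 in epiHybrid 150 and 0.213 in epiHybrid 232, with 0.393 in epiRIL 150, 0.0114 in epiRIL 232 and 0.355 in Col-Wt. EpiHybrid 150 was higher in each of the 57 windows, by 0.1 or more in 54. The pseudogene AT3G25815 (chr3:9435051-9436750, 16 windows) had 0.284 in epiHybrid 150 and 0.172 in epiHybrid 232, with 0.301 in epiRIL 150 and 0.0328 in epiRIL 232. A tract at AT3G25719 and AT3G25720 (chr3:9379551-9380550, 8 windows), which are listed as protein-coding, had 0.307 in epiHybrid 150 and 0.193 in epiHybrid 232. In the second interval 1 such tract was found, at chr3:22661551-22662250, with 0.337 in epiHybrid 150 and 0.193 in epiHybrid 232 and no gene overlapping it.

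Windows with epiRIL 232 as the more methylated parent formed 2 tracts. At the long non-coding RNA gene AT3G09445 (chr3:22370151-22370750, 5 windows) the level was 0.358 in epiHybrid 150 and 0.461 in epiHybrid 232, with 0.0138 in epiRIL 150, 0.411 in epiRIL 232 and 0.497 in Col-Wt. Within AT4G22410 (chr4:11819051-11819750, 6 windows) it was 0.00855 in epiHybrid 150 and 0.112 in epiHybrid 232, where epiRIL 232 had 0.274 and both epiRIL 150 (0.00870) and Col-Wt (0.0154) were unmethylated. There the methylated parent is the epiRIL and not Col-Wt, and epiHybrid 232 lay between them. In the same gene and its neighbour AT4G22415 both epiRILs were methylated elsewhere, and over chr4:11820551-11823850 (31 windows) the hybrids had 0.349 in epiHybrid 150 and 0.352 in epiHybrid 232. Other stretches with epiHybrid 150 lower included chr3:9378451-9378850 at the long non-coding RNA genes AT3G04935 and AT3G04955, with 0.0866 in epiHybrid 150 and 0.214 in epiHybrid 232, and chr3:9086551-9086750 at AT3G24880, with 0.124 in epiHybrid 150 and 0.246 in epiHybrid 232.

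In windows between these limits, the mean difference of the hybrids also had the direction of the epiRILs. With epiRIL 150 higher by 0.05 to 0.2 (662 windows) the mean was 0.184 in epiHybrid 150 and 0.148 in epiHybrid 232, which was 0.381 of the epiRIL difference. With it lower (475 windows) the mean was 0.124 in epiHybrid 150 and 0.139 in epiHybrid 232, a share of 0.166. The larger differences in these 475 windows were mixed in direction. There 9 passed 0.1 upwards (1.89%) and 13 downwards (2.74%), and past 0.2 there were 2 upwards and 1 downwards. Of the 1137 windows, 112 passed 0.1 upwards (9.85%) and 30 downwards (2.64%). Past 0.2 there were 23 upwards (2.02%) and 2 downwards (0.176%). The stretches with the most windows upwards were again at or between AT3G26260 and AT3G26265. Windows just below and just above the 0.05 limit of the epiRIL difference (0.045 to 0.05 and 0.05 to 0.055) had hybrid differences, in the direction of the epiRILs, of 0.0122 and 0.0120. Those just below and just above 0.2 (0.18 to 0.2 and 0.2 to 0.22) had 0.0629 and 0.0740.

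By gene class, pseudogene windows held 197 of the 407 windows with epiHybrid 150 higher by 0.1 or more and 7 of the 101 with it lower. They made up 6.21% of all windows, 51.5% of the unlike-parent windows and 59.7% of those methylated in Col-Wt and low in both epiRILs. Over the 1182 pseudogene windows the mean was 0.164 in epiHybrid 150 and 0.128 in epiHybrid 232, and over the 12509 windows of protein-coding genes it was 0.0221 in epiHybrid 150 and 0.0215 in epiHybrid 232. Of 731 genes with 3 or more windows, epiHybrid 150 was higher by 0.1 or more on average in 8 and lower by as much in 0. The 8 were the pseudogenes AT3G26260, AT3G26265, AT3G26483, AT3G26486, AT3G25815 and AT3G25826, the long non-coding RNA gene AT3G09565 and AT3G25719. By contrast, gene means were low in the CYP71B cluster, 18 neighbouring genes and pseudogenes of cytochrome P450 enzymes. They reached 0.0156 in epiHybrid 150 and 0.0147 in epiHybrid 232, and single windows reached 0.186 in epiHybrid 150 and 0.136 in epiHybrid 232. AT3G26260 and AT3G26265 lie within the span of this cluster, between CYP71B24 and CYP71B25. The CYP71B gene means differed by -0.00669 to 0.00645 between the hybrids, and in 1 of the 343 CYP71B windows the difference passed 0.1.

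Windows kept in both epiRILs formed 6 tracts, where the difference lay between -0.00281 and 0.0286 and epiHybrid 150 was higher in 4. Some of these tracts lie in the same pseudogene (AT3G25725 or AT4G21360). The pseudogene AT4G21360 had 0.333 in epiHybrid 150 and 0.316 in epiHybrid 232 over 41 windows, and the overlapping microRNA gene MIR4239 had 0.321 in epiHybrid 150 and 0.305 in epiHybrid 232 over 2. The pseudogene AT4G22040 had 0.402 in epiHybrid 150 and 0.382 in epiHybrid 232 over its kept tract of 7 windows. Over all 43 of its windows, of which 19 were like-parent, it had 0.401 in epiHybrid 150 and 0.369 in epiHybrid 232, higher in epiHybrid 150 in 33. AT4G22415 had 0.334 in epiHybrid 150 and 0.334 in epiHybrid 232. Among weakly methylated genes, LHCA2, a light-harvesting gene of photosystem I, had 0.0603 in epiHybrid 150 and 0.0706 in epiHybrid 232, and GATA4, a GATA-type transcription factor, had 0.0199 in epiHybrid 150 and 0.0226 in epiHybrid 232.

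The other 5 pairs of epiHybrids, which share columns with this pair, give the size of such differences elsewhere. The share of like-parent windows past 0.1 in either direction was 1.02% between epiHybrid 150 and epiHybrid 232 and 0.630 to 0.862% in the other pairs, each with the like-parent windows of its own epiRILs. In windows methylated in Col-Wt and low in both epiRILs of the pair, the mean difference was 0.0282 for epiHybrid 150 minus epiHybrid 193 (189 windows) and 0.0284 for epiHybrid 193 minus epiHybrid 232 (284 windows), against 0.0539 for epiHybrid 150 minus epiHybrid 232. The 3 pairs with epiHybrid 92 had 7 to 13 such windows each. In windows kept in both epiRILs the standard deviation of the difference over windows was 0.0459 to 0.0538 in the other pairs and 0.0509 here. Whether these gaps exceed the variation between plants of 1 line cannot be tested with 1 value per line.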

How the data were processed

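Bisulfite sequencing of 18 libraries from 9 lines was deposited as 1 table of windows of 100 bp every 50 bp. Its levels are fractions that the authors made by combining the 2 libraries of each line; a number of cytosines (not reads) goes with each, so read depth is unknown and intervals that need it are not given. The recorded tools are cutadapt, Bowtie2 and BS-Seeker2, with build TAIR10, per the submitters' processing notes, which give no versions. No source used here states how libraries were combined. The members, gene lists and limits were chosen with earlier results of these data known.

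Windows with 10 or more cytosines in both epiHybrids were kept, every second one, and levels were averaged with equal weight (Python 3.11.15, pandas 2.3.3, numpy 2.4.6; tested on simulated data). The median number of cytosines was 34 in epiHybrid 150 and 35 in epiHybrid 232, at most 72; among like-parent windows the standard deviation of the difference was 0.0295 at 10 to 19 cytosines and 0.0196 at 40 or more. Of 21944 alternate windows, 2911 had too few cytosines. The mean level in weakly methylated windows was 0.00563 in epiHybrid 150, 0.00557 in epiHybrid 232 and 0.00790 in Col-Wt. Named stretches join windows of 1 class and direction that differ by 0.1 or more and start at most 200 bp apart; the 6 with the most windows per class and direction were taken, with a set list of loci, and their means cover all windows in the span. Genes were taken by position from RefSeq (TAIR10.1), up to 1000 bp away.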

Additional observations from a re-analysis of the deposited data

Results flagged for a closer look

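At 3 places epiHybrid 150 lay at least 0.1 above its mid-parent level and epiHybrid 232 at least 0.1 below its own, in 2 or more neighbouring windows; with 1 value per line this difference was not tested. Near NIMIN-2 (chr3:9471151-9471350, 2 windows) the departures from the mid-parent level differed by 0.620, with levels of 0.642 in epiHybrid 150, 0.0214 in epiHybrid 232, 0.00421 in epiRIL 150, 0.00397 in epiRIL 232 and 0.703 in Col-Wt. The second of these windows held 33 cytosines in epiHybrid 150, 25 in Col-Wt and 14 in each of epiHybrid 232, epiRIL 150 and epiRIL 232. The other hybrids were high there, at 0.739 in epiHybrid 92 and 0.699 in epiHybrid 193. Their epiRILs were unlike in that window, at 0.0102 in epiRIL 92 and 0.615 in epiRIL 193. Near AT3G26260 (chr3:9618651-9619050) the departures differed by 0.254, with 0.288 in epiHybrid 150 and 0.0311 in epiHybrid 232. Near AT3G26265 (chr3:9619851-9620150) they differed by 0.308, with 0.374 in epiHybrid 150 and 0.0329 in epiHybrid 232. Opposite departures were counted over 17329 windows, fewer than the 18571 with levels in Col-Wt and both epiRILs. The hybrids departed in opposite directions by 0.1 or more in 14, and epiHybrid 150 was the one above in 12. Taken singly, epiHybrid 150 departed by as much upwards in 158 windows and downwards in 35. EpiHybrid 232 did so upwards in 109 and downwards in 56.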

How the results depend on the processing

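Of 133 recomputed values of the main results, 114 kept their sign and stayed within 1.5 times of the value given; the gap in windows low in both epiRILs did so in every alternative run (0.0460 to 0.0652). Leaving out the first chromosome 3 interval gave a mean difference of 0.00151 over all windows, 129 windows higher and 56 lower, 77 and 33 among like-parent windows, and for epiRIL 150 higher a hybrid difference of 0.0913 and a share of 0.305. Without the second chromosome 3 interval, like-parent windows gave 70 higher and 28 lower. A limit of 0.2 for the hybrid difference gave 112 higher and 7 lower, 23 and 2 among like-parent windows. A minimum of 20 cytosines gave 59 lower in all and 25 lower among like-parent windows. With epiRIL 150 lower, the hybrid difference and its share were -0.103 and 0.283 at an epiRIL limit of 0.3, and -0.0922 and 0.366 when neighbouring windows picked the windows; the cause was not tested. The single-gene means that changed sign were all near 0: CYP71B22 gave 8.24e-05 at 20 cytosines and 1.3e-05 weighted by cytosines, CYP71B23 gave -0.000591 at 5 cytosines, CYP71B35 gave -0.00478 at 20 cytosines, -0.00174 in the windows offset by 50 bp and -0.00158 weighted, and CYP71B37 gave 0.00135 in the offset windows.

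No paired analysis was possible because the deposited columns hold no separate libraries, and for the same reason the runs without 1 library were not made. Pooled contexts, unknown read depth and 1 value per line limit every comparison: the spread between plants is not known, and windows along 1 locus share the same plants. The 3 intervals were picked by the authors and are not the whole genome.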

Other observations

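In some windows methylation appeared in 1 hybrid where Col-Wt and both epiRILs had under 0.05. Of 13836 windows in this state, epiHybrid 150 was higher by 0.1 or more in 28 (0.202%) and lower in 31 (0.224%), below the 0.725% and 0.291% of all like-parent windows, and these were mostly isolated: 26 and 22 were single. The median level of the high hybrid was 0.125 in epiHybrid 150 and 0.131 in epiHybrid 232. EpiHybrid 92 and epiHybrid 193 were both under 0.05 in 27 of the 28 and in all 31.

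EpiHybrid 150 was the methylated one in 2 adjoining windows at AOC1, an allene oxide cyclase of jasmonate synthesis (0.168 and 0.213, against 0.00694 and 0 in epiHybrid 232). It was also the methylated one at 2 windows of LCD, an L-cysteine desulfhydrase (0.119 and 0.158, against 0.000557 and 0.00175 in epiHybrid 232). A stretch near AT4G22235 (chr4:11764451-11764850) belonged only in part to these windows. Over its 4 windows epiHybrid 150 averaged 0.170, against 0.00108 in epiHybrid 232 and 0 in Col-Wt. Levels of Col-Wt and both epiRILs were present in 3 of the 4. The median number of cytosines there was 11.5 in epiHybrid 150 and 25.5 in epiHybrid 232. EpiHybrid 232 was the methylated one over chr3:9116151-9116550 at AT3G25013, with 0.00171 in epiHybrid 150 and 0.125 in epiHybrid 232 over 4 windows. At TBL6 (chr3:23088951-23089150), of the trichome birefringence-like family, the level was 0.00195 in epiHybrid 150 and 0.140 in epiHybrid 232 over 2 windows. These genes were chosen after their values were seen. Whether such windows recur in other plants of these lines was not tested, and 16 of the 28 and 12 of the 31 had 20 or more cytosines in both hybrids.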
